A study of Mus musculus with 4 samples.

Results

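The 10 genes described here carry or restrain the signal of interleukin-6 (IL-6) and related cytokines: Socs1, Socs2, Socs3, Cish, Stat3, Il6st, Il6ra, Osmr, Lifr and Jak2. All probe sets annotated to these genes alone were taken, which gave 29 of the 45101 probe sets on the array, for 10 of its 18193 named genes. The genes were selected on knowledge of the signals of these same 4 arrays and their differences between the groups, so their values are given as a description and no difference was tested.

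In this pathway a cytokine such as IL-6, oncostatin M or leukaemia inhibitory factor binds a receptor chain of its own, and the complex recruits the shared chain gp130, encoded by Il6st. Janus kinases bound to the receptors, among them JAK2, then phosphorylate the transcription factor STAT3, which enters the nucleus. STAT3 induces SOCS3, which binds gp130 and the kinases and ends the signal. SOCS1, SOCS2 and CISH are related feedback inhibitors. SOCS2 and CISH act chiefly on the growth hormone and prolactin receptors, which signal through JAK2 and STAT5. In kidney, STAT3 signalling is known to be switched on in injured tubules and in infiltrating inflammatory cells.

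The series asks how renal gene expression in diabetes is affected when uninephrectomy, the removal of 1 kidney, is added to speed the disease. OVE26 mice carry a calmodulin transgene driven in pancreatic beta cells by an insulin promoter, lose these cells and become diabetic early in life. All mice were female, on the FVB/NJ background and without treatment other than surgery. The 4 groups were control (nondiabetic) sham, control uninephrectomy, OVE26 transgenic (diabetic) sham and OVE26 transgenic uninephrectomy, and the controls were littermates. Surgery was done at 2 months of age and perfused kidney tissue was taken at 4.5 months, 10 weeks later. Each group was 1 array hybridised with RNA pooled from 4 mice. No value below therefore measures the spread between animals, and precision is limited by having 4 arrays in all.

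The median signal of the arrays lay between 106.8 and 119.3. All 9 measured kidney markers, from the proximal tubule gene Lrp2 to the podocyte gene Nphs1, were expressed. Relative to the nondiabetic sham array, the 18S ribosomal RNA control signal was 1.02 times as high for nondiabetic uninephrectomy, 1.32 times for diabetic sham and 1.88 times for diabetic uninephrectomy. The 18 hybridisation spike-in probe sets stood at 1.23, 1.24 and 0.92 times in the same order. The ratio of the Actb 3′ to 5′ control signals was between 2.78 and 3.72, and that of Gapdh between 0.90 and 1.01. The part of these features in the differences below was not tested.

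A STAT dimer binds palindromic DNA, and the letters TTCNNNGAA are its common core. The start of Cish, a STAT5 target among the members, is shown to set motif content beside the signals. So are the promoter sequences of the 2 members with the largest differences, Socs3 and Osmr. They are the 250 bases before an annotated start in RefSeq (build GRCm38.p6), read 5′ to 3′ on the gene's strand, with TTCNNNGAA in capitals. The motif equals its own reverse complement, so both strands were searched at once. Socs3 lies at chr11:117969367-117969616 and Osmr at chr15:6874314-6874563, both on the minus strand. Both windows lie inside the annotated gene spans, which end at base 117970336 for Socs3 and 6874968 for Osmr. The starts used are therefore not the outermost ones of these genes. The Cish stretch is the first 20 bases after the start, chr9:107296659-107296678 on the plus strand.
Socs3: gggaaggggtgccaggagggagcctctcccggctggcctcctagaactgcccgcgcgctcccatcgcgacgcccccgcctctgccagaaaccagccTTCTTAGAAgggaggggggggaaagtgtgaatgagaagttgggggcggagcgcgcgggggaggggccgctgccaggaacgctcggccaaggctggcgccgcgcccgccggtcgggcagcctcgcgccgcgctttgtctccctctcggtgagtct
Osmr: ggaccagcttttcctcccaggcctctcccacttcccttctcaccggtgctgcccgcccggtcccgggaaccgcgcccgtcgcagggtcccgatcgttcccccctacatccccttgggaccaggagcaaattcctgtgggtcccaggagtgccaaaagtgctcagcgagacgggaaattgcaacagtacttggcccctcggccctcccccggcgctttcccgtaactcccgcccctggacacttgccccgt
Cish: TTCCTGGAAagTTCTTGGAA

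Socs3 held 1 match, which began 154 bases before the start, and Osmr held 0 in this window. Of the 32851 annotated mouse promoters of this length, 7.02% held at least 1 match. Cish held 0 matches upstream and 2 directly after its start. Of 9 members with a promoter in the table (all but Socs2), Socs3 and Cish were the only ones with a match between 250 bases before and 50 after the start, a window in which 8.3% of all promoters had one. A match is a description of the letters and not a measured binding site.

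Signals are the deposited linear intensities, and differences are on the log2(signal + 26.4) scale, where the offset is the 20th percentile of all values. The offset makes differences of dim probe sets smaller than the ratio of their signals. Probe sets were called expressed from a mean log2 value of 7.06 over the 4 arrays, the median of that mean over all probe sets. Of the 29 member probe sets, 20 from 9 genes were expressed. Socs1 was the gene without one.

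As a measure of how far probe sets of a gene disagree, the log2 differences of the 2 brightest expressed probe sets were compared in 4924 genes. Their gap had a median of 0.21 and a 95th percentile of 0.82 for diabetes after uninephrectomy. In the 281 genes in which both probe sets had a mean log2 value below 8, the median was 0.36 and the 95th percentile 1.22. These gaps describe probes on the same arrays and include no variation between mice.

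In the kidney of diabetic uninephrectomised mice the feedback inhibitor gene Socs3 had its highest signal on all 3 of its probe sets. The oncostatin M receptor gene Osmr was highest there on 2 of 3, and Stat3 and Socs2 on their 2 brightest probe sets. On expressed probe sets, the shared receptor chain Il6st and the leukaemia inhibitory factor receptor gene Lifr differed little between groups. The inhibitor gene Cish also differed little. The kinase gene Jak2 was lowest in diabetic uninephrectomised mice, with diabetes differences after uninephrectomy of -0.23 and -0.52 on its 2 probe sets. In sham mice 0 of the 20 expressed member probe sets were at least 2-fold higher or lower with diabetes, where 0.707% of all 19364 expressed probe sets with 1 gene symbol were higher and 0.589% lower. After uninephrectomy 3 of the 20 were at least 2-fold higher in diabetic mice (1 of Osmr and 2 of Socs3), where 1.75% of all expressed probe sets were, and 0 were lower, where 1.03% were. Among all 29 member probe sets, dim ones included, 0 were past 2-fold in sham mice, where 4.74% of all probe sets with 1 gene symbol were higher and 2.79% lower. After uninephrectomy 6 of the 29 were higher, where 3.55% were, and 1 was lower, where 5.25% were. The median over the 20 was -0.03 for diabetes under sham surgery and 0.22 for diabetes after uninephrectomy, against -0.01 over all expressed probe sets in both. Since the genes were chosen with these values in view, nothing is read from these shares.

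**Figure D1:**
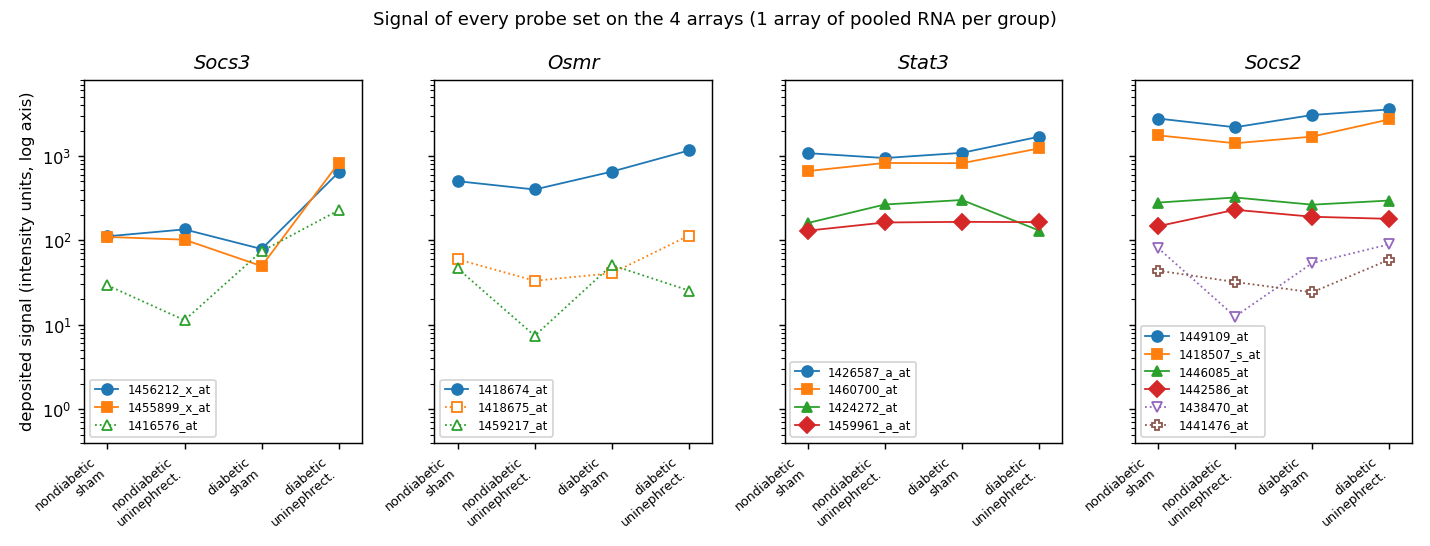
Deposited signal (log axis, intensity units) of every probe set of Socs3, Osmr, Stat3 and Socs2 on the 4 arrays, 1 array of pooled RNA per group. Each line joins the values of 1 probe set, filled symbols are expressed probe sets and open symbols lie below the filter. All 3 Socs3 probe sets have their highest point in diabetic uninephrectomised mice (227.6, 642.1 and 826.9), while the 4 Stat3 probe sets do not share an order.

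Among the inhibitors, Socs3 had the largest range of the members. Probe set 1455899_x_at read 109.7 in nondiabetic sham, 101.8 in nondiabetic uninephrectomy, 49.5 in diabetic sham and 826.9 in diabetic uninephrectomy mice. Probe set 1456212_x_at read 111.6, 134.8, 78.9 and 642.1 in the same order. On both, diabetic uninephrectomy was several times above the other 3 groups, and diabetic sham was the lowest. The diabetes difference after uninephrectomy was 2.73 and 2.05 on the log2 scale, or 8.12-fold and 4.76-fold as a ratio of signals, and in sham mice it was -0.84 and -0.39. With an offset of 1 the first of these sham differences was -1.13, past 2-fold.

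The third Socs3 probe set, 1416576_at, lay below the filter. It read 29.3, 11.3, 74.3 and 227.6 in the order given. It too was highest in diabetic uninephrectomised mice, with a difference of 2.75, but in sham mice its difference was 0.85, opposite in sign to the other 2. The probe sets of Socs3 thus agreed on a higher signal with diabetes after uninephrectomy and disagreed on its sign in sham mice. An _x_at probe set can hybridise to transcripts of other genes, and both brighter Socs3 probe sets are of that kind. They also met the expression filter only through their diabetic uninephrectomy value: their mean log2 values over the other 3 arrays were 6.78 and 7.05.

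Compared between the surgeries within diabetic mice, the 2 expressed Socs3 probe sets were 3.49 and 2.67 higher after uninephrectomy. Within nondiabetic mice their differences were -0.09 and 0.22. In the diabetic comparison 2 of 20 expressed member probe sets were at least 2-fold higher, both of Socs3, where 1.24% of all expressed probe sets were. In the nondiabetic one 0 were higher or lower, where 0.744% of all were higher and 0.651% lower. With dim probe sets included, 4 of the 29 were higher and 2 lower in diabetic mice, where 3.37% and 4.86% of all probe sets were. In nondiabetic mice 0 were higher and 2 lower, where 4.89% and 2.61% were. Among the 20 expressed probe sets, 0 were past 2-fold in the 2 comparisons that leave out the diabetic uninephrectomy array. In these, between 0.589% and 0.744% of all expressed probe sets were past 2-fold in each direction, so 0 of 20 is near those shares. With an offset of 1 the count in sham mice was 1.

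Socs2, which restrains growth hormone signalling, had 6 probe sets, of which 4 were expressed. Its brightest, 1449109_at, read 2776 in nondiabetic sham, 2188 in nondiabetic uninephrectomy, 3055 in diabetic sham and 3558 in diabetic uninephrectomy mice. Probe set 1418507_s_at read 1755, 1415, 1694 and 2709.7. Both were lowest in nondiabetic and highest in diabetic uninephrectomised mice, with differences of 0.69 and 0.93, the latter 1.05 and so past 2-fold with each array centred on its median. The 2 dimmer expressed probe sets did not share this order and had differences of -0.11 (1446085_at) and -0.32 (1442586_at). The 2 brightest thus differ from each other by less than the 95th percentile of 0.82, and both differ from 1442586_at by more. The other 2 lay below the filter and were highest in diabetic uninephrectomised mice. Probe set 1438470_at read 81.4, 12.5, 53.7 and 89.9, with diabetes differences of -0.43 in sham mice and 1.58 after uninephrectomy. Its uninephrectomy difference in nondiabetic mice was -1.47. Probe set 1441476_at read 43.8, 32.1, 24.2 and 59.2, with diabetes differences of -0.47 and 0.55.

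Cish, an inhibitor gene induced by STAT5, read 798.6, 968.9, 968.9 and 872.5 in the same order on its single probe set. Its groups lay close together, and its diabetes differences were 0.27 in sham and -0.15 in uninephrectomised mice. Socs1, which inhibits Janus kinases directly, read 46.6, 55.1, 57.5 and 10.0 on its single probe set. All 4 values lie below the filter, and the lowest was that of diabetic uninephrectomised mice.

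**Figure D2:**
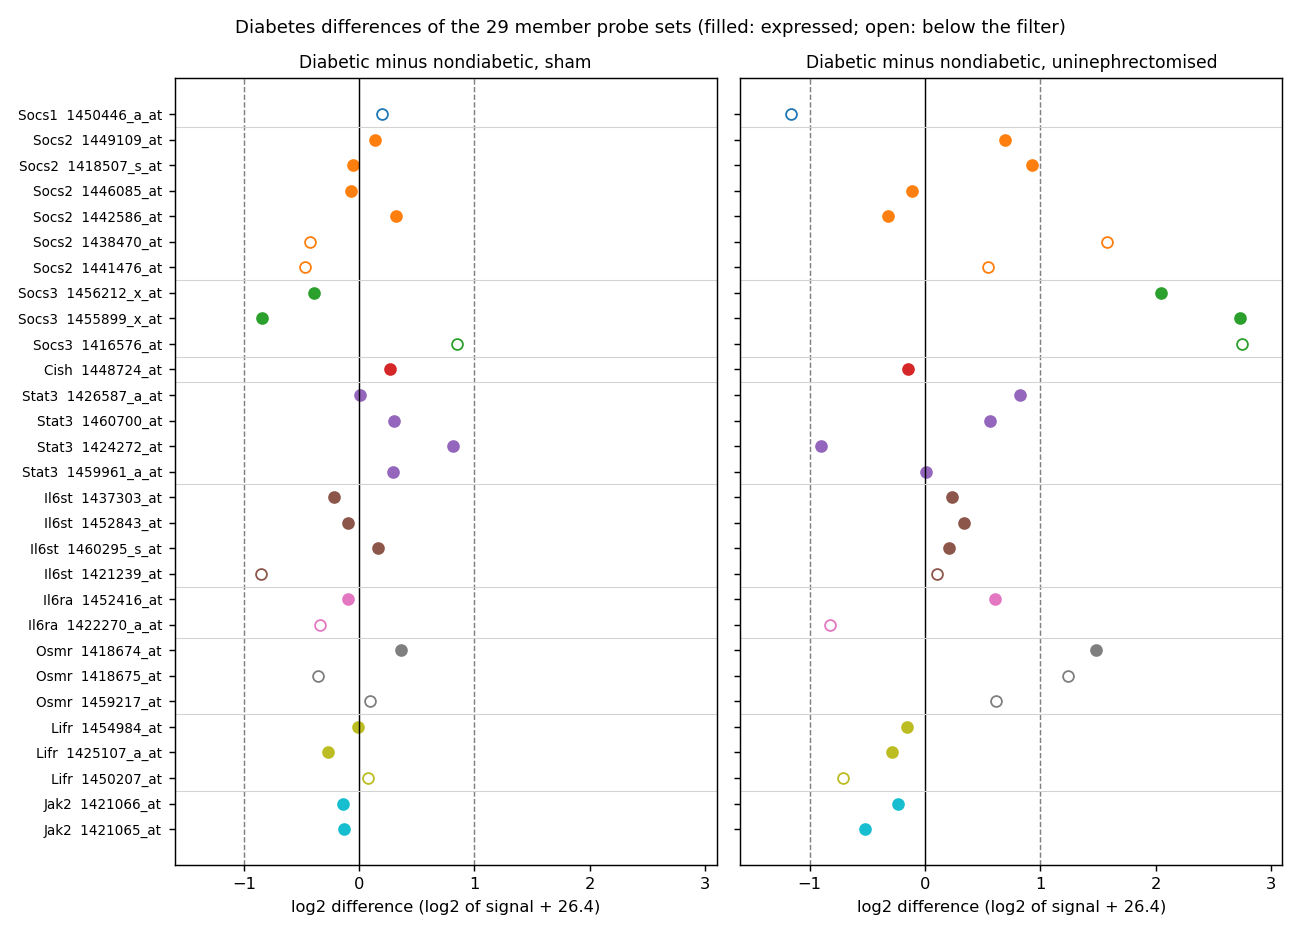
Log2 difference between the diabetic and the nondiabetic array for each of the 29 member probe sets, in sham (left) and in uninephrectomised mice (right). Filled points are expressed, open points lie below the filter, and dashed lines mark 2-fold. In sham mice all points lie between -0.85 and 0.85, and after uninephrectomy the 3 Socs3 points lie between 2.05 and 2.75.

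Among the receptors, Osmr differed most. Osmr encodes the chain that pairs with gp130 to bind oncostatin M. Its brightest probe set, 1418674_at, read 502.1 in nondiabetic sham, 400.4 in nondiabetic uninephrectomy, 652.1 in diabetic sham and 1162 in diabetic uninephrectomy mice. Both diabetic values lay above both nondiabetic values, and diabetes made a difference of 0.36 under sham surgery and of 1.48 after uninephrectomy, a signal ratio of 2.9. Uninephrectomy alone differed by -0.31 in nondiabetic and 0.81 in diabetic mice.

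The other 2 Osmr probe sets lay below the filter. Probe set 1418675_at read 59.6, 33.2, 40.7 and 113.9 and was also highest in diabetic uninephrectomised mice, with a difference of 1.24. Probe set 1459217_at read 46.5, 7.4, 51.0 and 25.4, and its highest value was in diabetic sham mice. In uninephrectomised mice all 3 were higher with diabetes. In sham mice 1418675_at was lower by 0.36 while the other 2 were higher.

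Il6st, which encodes gp130, differed by less than 2-fold between groups on its 3 expressed probe sets. Its brightest probe set, 1437303_at, read 2795 in nondiabetic sham, 2277 in nondiabetic uninephrectomy, 2390.3 in diabetic sham and 2685 in diabetic uninephrectomy mice. Its other 2 expressed probe sets differed with diabetes by -0.10 and 0.16 under sham surgery and by 0.34 and 0.21 after uninephrectomy. All 3 expressed probe sets were higher with diabetes after uninephrectomy, by 0.21 to 0.34. Probe set 1421239_at lay below the filter and read 35.5, 30.9, 8.0 and 34.9. It differed with diabetes by -0.85 in sham mice and by 0.10 after uninephrectomy.

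Il6ra, which encodes the chain that binds IL-6 itself, had 1 expressed probe set, 1452416_at. It read 158.7, 111.9, 146.9 and 184.3 in the same order, with diabetes differences of -0.10 and 0.61. The other, 1422270_a_at, lay below the filter and differed by -0.34 in sham mice and by -0.82 after uninephrectomy. The 2 probe sets of Il6ra were thus both lower with diabetes in sham mice and opposite in sign after uninephrectomy.

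Lifr, which binds leukaemia inhibitory factor together with gp130, differed little on its 2 expressed probe sets. Probe set 1454984_at read 2400.4 and 2289.9 in nondiabetic and 2384 and 2047 in diabetic mice, sham before uninephrectomy. Probe set 1425107_a_at read 1004 and 921.3 in nondiabetic and 830.5 and 748.3 in diabetic mice, so that both diabetic values lay below both nondiabetic ones. Its differences were -0.27 and -0.29, and those of 1454984_at were -0.01 and -0.16. The dim probe set 1450207_at lay below the filter and differed by 0.08 in sham and -0.71 in uninephrectomised mice. Jak2, the kinase, was lower with diabetes on both of its probe sets in both surgeries. Probe set 1421066_at read 1645 and 1588 in nondiabetic and 1493 and 1348 in diabetic mice, and the differences of 1421065_at were -0.13 in sham and -0.52 in uninephrectomised mice.

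The transcription factor gene Stat3 had 4 expressed probe sets that did not agree. Probe set 1426587_a_at read 1079 in nondiabetic sham, 944.3 in nondiabetic uninephrectomy, 1089 in diabetic sham and 1691 in diabetic uninephrectomy mice. Probe set 1460700_at read 661.7, 826.0, 821.1 and 1228. These 2, the brightest, were highest in diabetic uninephrectomised mice, by 0.82 and 0.56 against nondiabetic uninephrectomised mice. The corresponding sham differences were 0.01 and 0.30.

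Probe set 1424272_at of Stat3 went the other way. It read 160.4, 266.0, 300.5 and 130.7, with diabetes differences of 0.81 in sham and -0.90 in uninephrectomised mice. Within diabetic mice it was 1.06 lower after uninephrectomy, the 1 member of 20 at least 2-fold lower there, where 0.687% of all expressed probe sets were, and the difference was -0.98 with each array centred on its median and -0.88 with an offset of 72.5. With an offset of 1 its diabetes difference after uninephrectomy was -1.02, past 2-fold. The last, 1459961_a_at, differed by 0.29 and 0.01. With diabetes in sham mice all 4 were higher, by 0.01 to 0.81, while after uninephrectomy the brightest 2 and 1424272_at had opposite signs.

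**Figure D3:**
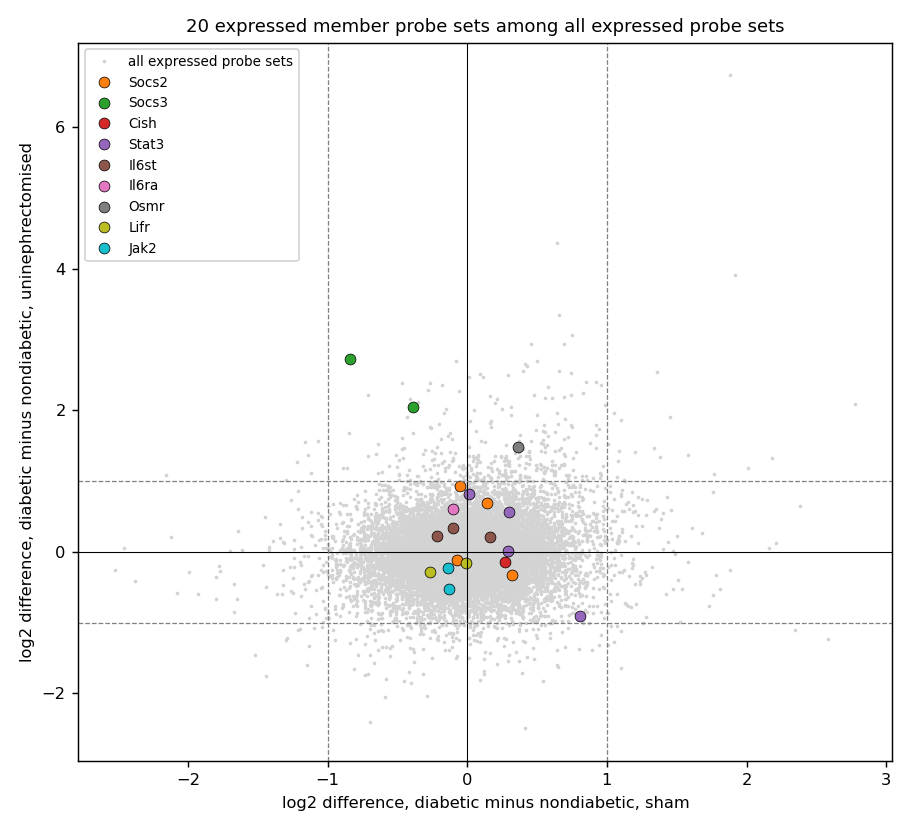
Log2 difference with diabetes in uninephrectomised mice (vertical) against that in sham mice (horizontal) for all 19364 expressed probe sets with 1 gene symbol (grey) and the 20 expressed member probe sets (coloured by gene). Dashed lines mark 2-fold. Both Socs3 points and the Osmr point lie above the upper line, and the other 17 members lie within 2-fold in both directions.

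The difference of the diabetes differences, uninephrectomised minus sham, uses all 4 arrays and has no error. It was 3.58 and 2.44 for the expressed Socs3 probe sets, 1.12 for Osmr 1418674_at, 0.97 and 0.56 for the brightest Socs2 probe sets and 0.81 and 0.26 for the brightest of Stat3. For Il6st 1437303_at it was 0.46, for Lifr 1454984_at -0.15, for Jak2 1421066_at -0.09 and for Cish -0.42.

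The cytokines that feed this pathway were dim in whole kidney. Of 7 IL-6 family ligand genes with a probe set, 1 was expressed, the cardiotrophin gene Ctf1, which read between 346.8 and 472.1 and was lowest in diabetic uninephrectomised mice. IL-6 itself read 14.5 in nondiabetic sham, 50.2 in nondiabetic uninephrectomy, 29.1 in diabetic sham and 84.2 in diabetic uninephrectomy mice, all below the filter. The oncostatin M gene Osm, the ligand of Osmr, read 98.3, 89.3, 102.3 and 7.9, also below it throughout. The ligand genes Lif and Clcf1 were not expressed by their mean but were highest in diabetic uninephrectomised mice. Lif 1421207_at read 21.1, 47.7, 94.2 and 130.1, and Clcf1 1437270_a_at read 50.5, 78.2, 93.9 and 231.8. Both of these probe sets met the filter on the diabetic uninephrectomy array alone. The ligand genes Il11 and Ebi3, also not expressed, were highest in diabetic sham mice. Among 3 other receptors of the family 0 were expressed, and the ciliary neurotrophic factor receptor gene Cntfr read between 10.9 and 99.6 on its brightest probe set.

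Of the other Janus kinase and STAT genes, 5 had 8 expressed probe sets between them. In either diabetes comparison 0 of these were at least 2-fold different, and their median differences were 0.08 in sham and -0.07 in uninephrectomised mice. Stat5a, which transmits growth hormone and prolactin signals, was 1.15 lower after uninephrectomy in diabetic mice on 1421469_a_at, reading 203.9, 206.3, 294.2 and 117.8. All 12 genes of the other SOCS proteins and of the phosphatases and PIAS proteins that restrain the pathway were expressed. Of their 28 probe sets 0 were at least 2-fold different in any of the 4 comparisons. Among the brightest probe sets of these genes the widest range belonged to the phosphatase gene Ptpn6, whose probe set 1456694_x_at read 856.4 in nondiabetic sham mice and between 527.9 and 590.7 elsewhere. Among them, the brightest probe set of Socs4 read between 1493 and 1666, that of Socs5 between 659.7 and 1024, that of Socs6 between 683.8 and 964.8 and that of Socs7 between 933.1 and 1109.

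Of 22 expressed probe sets from 15 genes known as STAT3 targets, 7 were at least 2-fold higher with diabetes after uninephrectomy and 0 lower, beside 1.75% and 1.03% of all expressed probe sets. In sham mice 1 was higher and 1 lower, beside 0.707% and 0.589%. Of the 7, those of Lcn2, Lrg1 and Bcl3 met the expression filter only through their diabetic uninephrectomy value. The medians were 0.54 and 0.30, against -0.01 over all expressed probe sets. These targets answer to other factors too, and several were already known to differ on these arrays, so the counts are no independent evidence.

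Lcn2, the secreted tubular injury marker NGAL, read 41.7 in nondiabetic sham, 5.7 in nondiabetic uninephrectomy, 224.5 in diabetic sham and 3374 in diabetic uninephrectomy mice. The fibrinogen chain gene Fgg read 350.1, 478.1, 569.4 and 2921 in this order. Fga read 610.9, 859.8, 740.5 and 2180.2, and was higher with diabetes by 0.27 in sham and by 1.32 in uninephrectomised mice. These 3 genes shared with Socs3 a highest signal in diabetic uninephrectomised mice. So did the rest of the STAT3 target list on their brightest probe sets, expressed or not, except Junb and Il4ra.

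Lrg1, a secreted acute phase glycoprotein gene, read 108.5, 41.4, 102.9 and 299.6 and differed by -0.06 in sham and 2.27 in uninephrectomised mice. Myc, the growth-promoting transcription factor gene, read 129.2, 245.7, 214.0 and 553.7. Fgb was higher in every group than in nondiabetic sham mice, with 99.8 there and 296.4, 223.7 and 463.6 in the others.

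**Figure D4:**
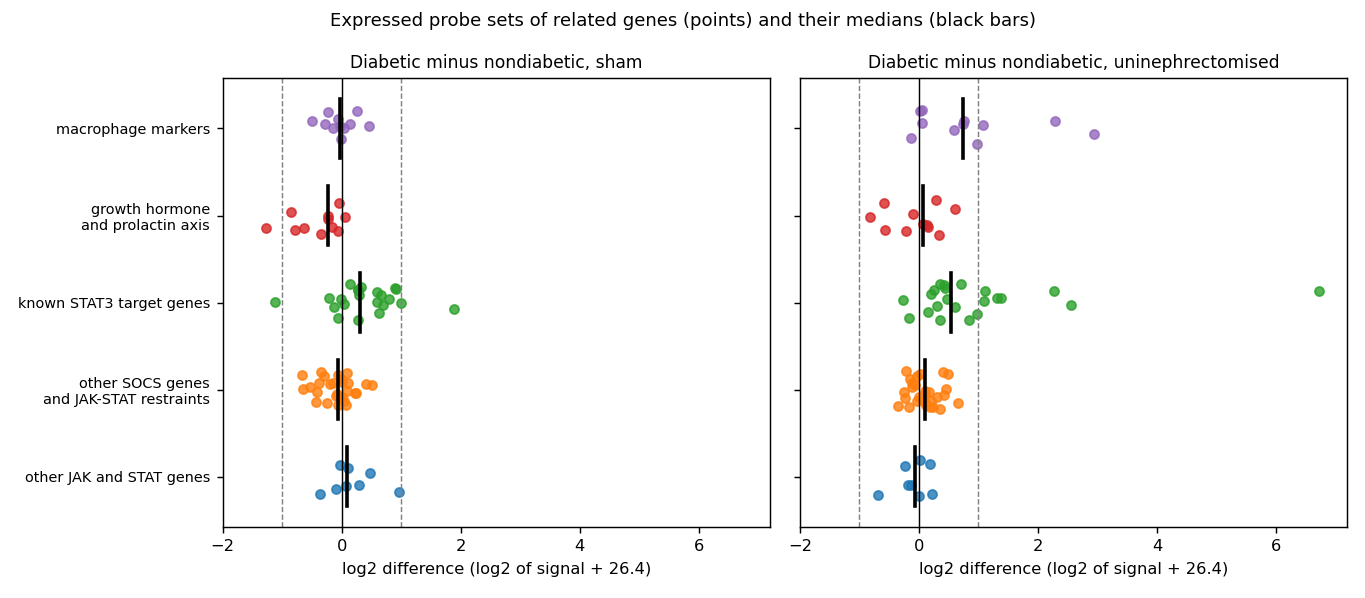
Log2 difference with diabetes in sham (left) and uninephrectomised mice (right) for expressed probe sets of related genes, by list. Points are probe sets with random vertical spacing, black bars are medians and dashed lines mark 2-fold. The median of the STAT3 targets is 0.30 and 0.54, and that of the macrophage markers is -0.03 and 0.74.

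In the growth hormone axis, 11 probe sets from 5 genes were expressed, with median diabetes differences of -0.24 in sham and 0.07 in uninephrectomised mice. Ghr, the growth hormone receptor gene, was near level on its brightest probe set 1417962_s_at, between 25116 and 29554. Its dimmer probe set 1451871_a_at read 2069, 1207, 844.6 and 1031.5 and was the 1 of the 11 at least 2-fold different with diabetes in sham mice, lower by 1.27. The higher Socs2 signals of diabetic uninephrectomised mice stood beside a Ghr difference of -0.10 on its brightest probe set.

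Most macrophage markers were highest in the group with the highest Socs3. Of 9 macrophage marker genes, 7 were highest in diabetic uninephrectomised mice on their brightest probe set, expressed or not. Among these 7, Cd68 was not expressed. The share over all expressed probe sets, a set with the filter applied, was 26.0%. The brightest probe sets of the 9 genes summed to 8955 in nondiabetic sham and 7714 in nondiabetic uninephrectomy mice. In diabetic mice the sum was 8690 in sham and 14486 after uninephrectomy. The median difference of the 11 expressed macrophage probe sets was 0.74 with diabetes after uninephrectomy and -0.03 in sham mice. The lysozyme gene Lyz2 made up most of the gap in the sum, at 1011 in diabetic sham and 5043 in diabetic uninephrectomised mice. The receptor gene Csf1r, the brightest of the list, read 6558, 5093, 5929 and 5182 and was highest in nondiabetic sham mice. The integrin gene Itgam lay below the filter on every array. Of 8 lymphocyte and neutrophil marker genes 1 was expressed, the pan-leukocyte gene Ptprc. Its probe set 1422124_a_at read 542.4, 574.0, 383.0 and 822.7, and was 1.05 higher after uninephrectomy in diabetic mice. The summed signal of the 8 was lowest in diabetic sham mice, at 755, and highest in diabetic uninephrectomised mice, at 1102. On their brightest probe sets 2 of the 8 were highest in diabetic uninephrectomised mice. In whole tissue, more cells of a type and more RNA per cell cannot be told apart, and the part of these cells in the Socs3 and Osmr differences was not tested.

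On their brightest probe sets, expressed or not, all 6 adipocyte genes were lower after uninephrectomy in nondiabetic mice. These differences lay between -0.59 (Lep) and -3.19 (Adipoq). In diabetic mice Adipoq differed by -2.14, Car3 by -2.33, Cidec by -1.32 and Retn by -1.07. Fabp4 (-0.02) and Lep (-0.06) were near level there. The summed signal of 6 adipocyte genes was 14568 in nondiabetic sham, 5405 in nondiabetic uninephrectomy, 26450 in diabetic sham and 13266 in diabetic uninephrectomy mice, with Lep below the filter throughout. Within diabetic mice most of the gap in the sum lay in Car3, at 14558 in sham and 2874 after uninephrectomy on 1449434_at, while the fatty acid binding protein gene Fabp4 read 10019.9 and 9899 on 1417023_a_at. The part of adipocytes in the member differences was not tested. The summed kidney markers were lowest in diabetic uninephrectomised mice, at 119443 against 146963 to 168322 elsewhere. Kap and Umod were the brightest of them, and Kap read 48290, 49675, 32343 and 28539 in the usual order. Aqp2 went the other way and was the 1 of the 9 genes highest in diabetic uninephrectomised mice. It read 2530.6, 1445.5, 3129.4 and 3583.3, with a diabetes difference of 1.29 after uninephrectomy. The 4 hepatocyte marker genes summed to between 4931 and 8648, most of it Cyp2e1, which was highest in diabetic sham mice at 8126.0. The albumin gene Alb read 497.9, 651.2, 376.8 and 203.3 in the usual order and was lowest in diabetic uninephrectomised mice.

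The expressed genes closest in pattern to Socs3 1455899_x_at were found by the root mean square distance between log2 profiles centred on their mean over the 4 arrays, among 11197 genes outside the members. They were the chemokine gene Ccl9 at a distance of 0.38, the ubiquitin-like gene Ubd at 0.39, the adhesion molecule gene Vcam1 at 0.40, and the collagen genes Col1a1 and Col12a1 at 0.48 and 0.50. Vcam1 read 507.1, 437.8, 375.3 and 2041 in the usual order. Like Socs3, these genes were several times higher in diabetic uninephrectomised mice than in the other 3 groups, which follows from their selection by likeness. Ccl9, Ubd and Col1a1, like Socs3, met the expression filter only through that group. A likeness over 4 arrays describes these values only.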

How the data were processed

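The authors deposited 1 linear intensity per probe set and array. Not given in the sources used here were the software, background correction and summary method. Without the highest and lowest 2% of values the mean was 500.003 on each array, and so the deposited intensities had been scaled to a common level, and no further normalisation was applied. Per the labels' protocols, 100 ng of RNA pooled from 4 mice was labelled with biotin.

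A platform annotation gave 1 gene symbol for 34945 of 45037 probe sets that are not controls. Symbols were checked through the Entrez number in a RefSeq table (GRCm38.p6), which held 34741 and changed 0. Probe sets with several symbols or none, and the 64 control probe sets, were left out of counts. Values were set on the log2(intensity + 26.4) scale.

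With 1 array per group there is no replicate error, and with members chosen from these data no test was run. A difference counts when it is at least 2-fold. The members and gene lists were chosen with earlier results of these data known. From each list, genes with an expressed probe set past 2-fold were named, at most 6 by range over the arrays, or else the gene with the widest range. Alternatives were quantile normalisation, median centring, offsets of 1 and 72.5 (the 40th percentile), no filter, a filter at the 75th percentile, 1 probe set or the mean per gene and a 1.5-fold threshold. Counting was tested on simulated data. Python 3.11.15, numpy 2.4.6 and pandas 2.3.3 were used. Some related genes are not reported here.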

Additional observations from a re-analysis of the deposited data

Results flagged for a closer look

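These results had diabetes or surgery differences of opposite sign in the 2 arms, with 1 arm past 2-fold. With 1 array per group the difference between the arms was not tested. For Socs3 1455899_x_at the diabetes difference was 2.73 after uninephrectomy and -0.84 in sham mice, 3.58 apart on the log2 scale, and the uninephrectomy difference was 3.49 in diabetic and -0.09 in nondiabetic mice, also 3.58 apart, since both use the same 4 values. For Socs3 1456212_x_at the diabetes differences of 2.05 and -0.39 were 2.44 apart. For Stat3 1424272_at the uninephrectomy difference was -1.06 in diabetic and 0.65 in nondiabetic mice, which gives -1.70.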

How the results depend on the processing

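No paired analysis was possible because each group is 1 array. The counts of member probe sets at least 2-fold different were 0 and 3 for diabetes in sham and uninephrectomised mice, and 0 and 3 for uninephrectomy in nondiabetic and diabetic mice. Quantile normalisation left these 4 counts as they were. Without a filter the last 3 became 7, 2 and 6, and with a filter at the 75th percentile the count for diabetes after uninephrectomy became 1 and that for uninephrectomy in diabetic mice 0. At 1.5-fold the 4 counts were 2, 8, 1 and 6. With an offset of 1 the first was 1 and the second 4. Median centring gave 4 for the second and 2 for the last. With 1 probe set per gene, or their mean, the last was 1. An alternative added after the data were seen, a filter met on both arrays compared, also left 1, as both Socs3 probe sets lie below the filter in diabetic sham mice, and left 2 for diabetes after uninephrectomy. The 70 expressed probe sets of the related lists had 19 differences past 2-fold over the 4 comparisons, 53 without a filter, 6 at the stricter filter and 56 at 1.5-fold. The 3.58 of Socs3 lay between 2.95 and 4.14 over the offsets and scalings. Median centring took the median difference of all expressed probe sets from -0.01 to between -0.14 and 0.11 and turned the sign of 4 of 80 member differences, none larger than 0.11. Dim signals limit Socs1, the ligands and the third Socs3 probe set.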
